A study of Mus musculus with 38 samples.

Results

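The 10 genes described here encode the core of the calcium cycle of the heart muscle cell: Cacna1c, Jph2, Ryr2, Trdn, Casq2, Hrc, Atp2a2, Pln, Sln and Camk2d. They were taken as a named list whose rule uses no measured value, although earlier results of these data were known, and all 10 were found among the 35682 genes counted. RNA was sequenced from cardiomyocytes, endothelial cells (ECs) and fibroblasts of C57BL/6 male mice, in 38 libraries that each pooled 2 hearts. SHAM mice received the vehicle, saline with 5% DMSO, by mouth each day for 6 weeks and had the chest opened without ischemia. Control_IR mice received the same vehicle for 6 weeks and then underwent ligation of the left anterior descending artery for 30 min followed by 2 h of reperfusion. EMPA_IR mice received empagliflozin, an inhibitor of the sodium-glucose cotransporter SGLT2, at 10 mg/kg/day for the same 6 weeks before the same ischemia and reperfusion. The mice were 8 to 12 weeks old. Cardiomyocytes came as 4 SHAM, 5 Control_IR and 4 EMPA_IR libraries, ECs as 4, 4 and 5, and fibroblasts as 4 of each. Hearts were digested with collagenase and the tissue below the suture was taken. Cardiomyocytes were spun down at low speed without sorting. ECs and fibroblasts were sorted by surface markers from the supernatant of the same digests. Libraries of different populations can therefore share hearts, and the labels do not say which do.

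In a heartbeat, calcium enters through the L-type channel, whose pore is the product of Cacna1c, and opens the ryanodine receptor Ryr2 on the facing membrane of the sarcoplasmic reticulum, which junctophilin (Jph2) holds close to the surface membrane. Casq2 buffers calcium in the store, triadin (Trdn) anchors it to the release channel, and Hrc is a second binding protein of the lumen. The pump SERCA2, encoded by Atp2a2, takes calcium back up and is inhibited by the small membrane proteins phospholamban (Pln) and sarcolipin (Sln), the latter known in mice mainly from the atria. Camk2d encodes the main calmodulin-dependent kinase of the heart, which phosphorylates the release channel and phospholamban and is also present in other cells. Disturbed calcium release and uptake are a known feature of reperfused heart muscle.

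All 10 are protein-coding genes, placed here on GRCm39 by the GENCODE annotation. The entry channel and the junction protein are Cacna1c (ENSMUSG00000051331) at chr6:118564201-119173851 on the minus strand and Jph2 (ENSMUSG00000017817) at chr2:163178162-163239920 on the minus strand. The release channel and its anchor are Ryr2 (ENSMUSG00000021313) at chr13:11567988-12121870 on the minus strand and Trdn (ENSMUSG00000019787) at chr10:32956550-33356376 on the plus strand. The binding proteins of the store are Casq2 (ENSMUSG00000027861) at chr3:101993234-102056307 on the plus strand and Hrc (ENSMUSG00000038239) at chr7:44984681-44988401 on the plus strand. The pump is Atp2a2 (ENSMUSG00000029467) at chr5:122591575-122640903 on the minus strand, and its inhibitors are Pln (ENSMUSG00000038583) at chr10:53199622-53223512 on the plus strand and Sln (ENSMUSG00000042045) at chr9:53742537-53761846 on the plus strand. The kinase is Camk2d (ENSMUSG00000053819) at chr3:126389945-126639982 on the plus strand.

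Both pump inhibitors are short. The coding sequences are shown because Pln was the single member that passed a threshold in cardiomyocytes and Sln the member with the widest spread. They were read on the plus strand from the GENCODE annotation of GRCm39, at chr10:53219960-53220118 for Pln and chr9:53760757-53760852 for Sln, each within exon 2 of 2 of the transcript. The start and stop codons are in capitals.
Pln: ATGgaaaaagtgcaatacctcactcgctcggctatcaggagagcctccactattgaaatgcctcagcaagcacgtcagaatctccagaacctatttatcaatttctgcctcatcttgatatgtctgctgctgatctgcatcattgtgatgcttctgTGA
Sln: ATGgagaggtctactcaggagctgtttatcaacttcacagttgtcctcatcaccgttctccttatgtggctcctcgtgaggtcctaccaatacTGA
Pln has 52 codons before its stop and Sln has 31.

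Promoters from RefSeq (GRCm38.p6, the 250 bases before the start) matched 7 of the 10 members. Atp2a2, Sln and Trdn had no entry. Those of Pln and Casq2 are shown because each holds a motif match, and that of Camk2d because its level differed least between the cell populations. All 3 lie on the plus strand, at chr10:53337436-53337685 for Pln, chr3:102086165-102086414 for Casq2 and chr3:126596701-126596950 for Camk2d. Capitals mark a TATAAA run in Pln, a match to the MEF2 motif in Casq2 and each CG pair in Camk2d.
Pln: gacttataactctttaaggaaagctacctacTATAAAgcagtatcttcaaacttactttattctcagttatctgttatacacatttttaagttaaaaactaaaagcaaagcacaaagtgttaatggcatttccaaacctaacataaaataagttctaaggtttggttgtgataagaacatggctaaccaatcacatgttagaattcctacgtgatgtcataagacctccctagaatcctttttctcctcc
Casq2: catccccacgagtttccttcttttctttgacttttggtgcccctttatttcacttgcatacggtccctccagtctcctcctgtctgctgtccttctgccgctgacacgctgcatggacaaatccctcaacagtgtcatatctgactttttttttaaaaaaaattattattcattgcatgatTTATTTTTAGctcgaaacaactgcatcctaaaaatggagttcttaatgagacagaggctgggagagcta
Camk2d: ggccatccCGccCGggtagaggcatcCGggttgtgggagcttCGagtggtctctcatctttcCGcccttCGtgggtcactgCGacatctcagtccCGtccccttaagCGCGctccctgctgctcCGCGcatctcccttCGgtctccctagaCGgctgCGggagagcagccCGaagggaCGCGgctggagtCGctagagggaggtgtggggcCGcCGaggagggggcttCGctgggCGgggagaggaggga
G and C made up 32.8% of the Pln window, 41.6% of that of Casq2 and 68.4% of that of Camk2d, against a median of 52.4% over 32851 promoters. The Camk2d window held 23 CG pairs, Casq2 5 and Pln 1, with a median of 6. Of 5 motifs searched on both strands, the MEF2 motif was found only in Casq2 among the matched members, starting 69 bases before the start, and in 2.92% of all promoters. TATAAA was found only in Pln, 219 bases before the start, and in 12.4% of all promoters. The CArG box was in none of the members' windows and in 1.47% of all, AGATAA was in Pln and in 9.99% of all, and CANNTG was in every matched member but Camk2d and in 66.2% of all. Such matches describe the letters and are not evidence of binding.

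The total per library was 2031716 to 4509284 counts for cardiomyocytes, 1352514 to 2195308 for ECs and 1946056 to 2821373 for fibroblasts, so that 3 counts, the limit that a count of 0 allows, corresponded to at most 1.48, 2.22 and 1.54 CPM, a count relative to the total of its library (here without TMM factors). Mitochondrially encoded transcripts took 46.6 to 66.01% of the cardiomyocyte counts and 3.47 to 14.6% in the sorted cells. All 11 cardiomyocyte markers were detected in each cardiomyocyte group, with a summed level of 28247 to 57115 CPM per library, against 337 to 1887 CPM in ECs and 173 to 1086 CPM in fibroblasts. Among those markers the transcription factor Nkx2-5 was at 0 in every SHAM library of the sorted cells. Levels below are CPM with totals scaled by TMM factors within each population unless stated otherwise. FDR stands for the p-value of edgeR's quasi-likelihood test after Benjamini-Hochberg adjustment over all genes tested, with a threshold of 0.05 and, in cardiomyocytes, also 0.1. In these bulk libraries fewer cells of a type and less RNA per cell cannot be told apart.

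In cardiomyocytes, ischemia and reperfusion left every member short of the threshold. Of the 10 members, all tested, 0 passed an FDR of 0.1 in Control_IR against SHAM (0.0655% of the 9167 genes tested passed), and the FDR of each member was 1.00. At an unadjusted p under 0.05 there were 3 members, Ryr2, Cacna1c and Sln, all higher in Control_IR (2.72% of all genes). Between EMPA_IR and Control_IR, Pln was the single member at an FDR under 0.1 and was higher in EMPA_IR (10.7% of all genes passed, 5.33% as higher), while 0 members passed 0.05 (0.0218% of all genes). No member passed 0.1 in EMPA_IR against SHAM (0.818% of all genes), where Cacna1c came closest. The median log2 fold change of the 10 members was -0.02, 0.04 and 0.20 in the 3 comparisons in that order, beside 0.01, -0.01 and -0.0027 over all genes tested.

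**Figure D1:**
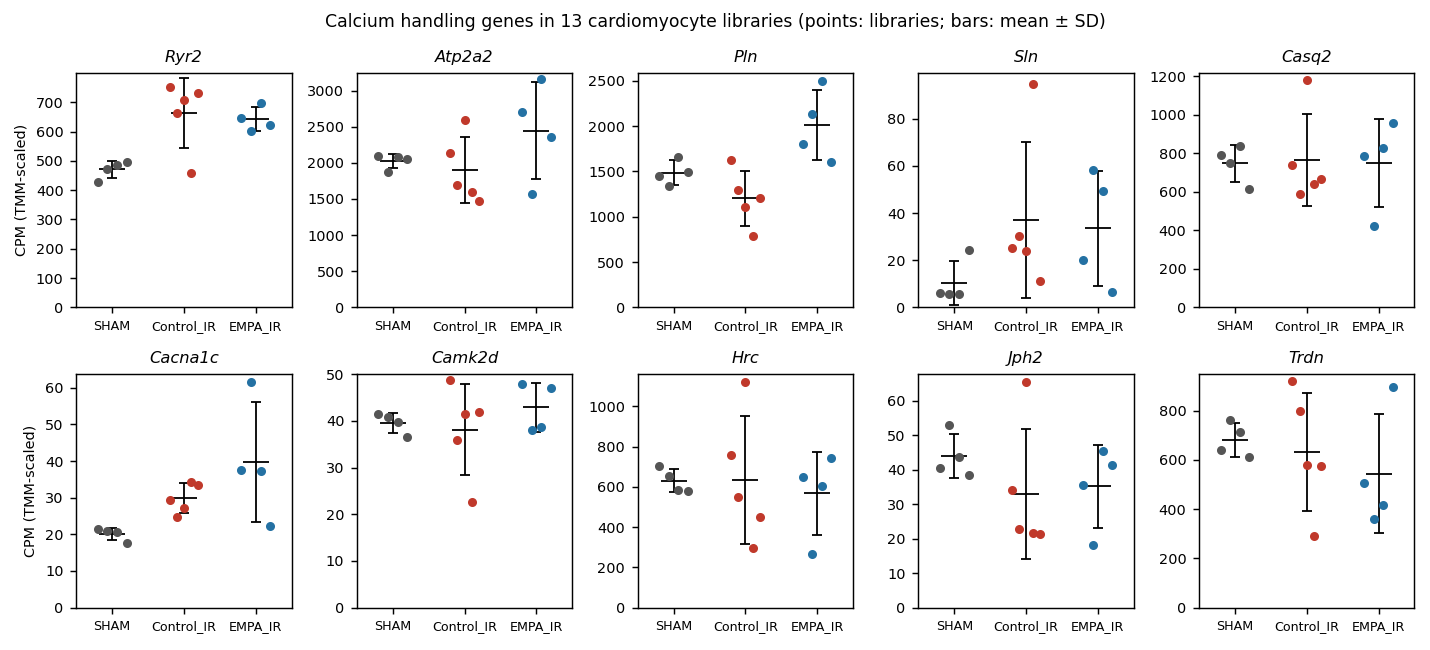
CPM of each member in the 13 cardiomyocyte libraries (points) by group, with the group mean and SD as bars and each y axis starting at 0. Pln reached 1609 to 2499 CPM in EMPA_IR against 790.3 to 1621 in Control_IR, and Cacna1c in SHAM, 17.5 to 21.4 CPM, lay below every other library.

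Calcium entry was represented by Cacna1c. Its level in the 4 SHAM libraries was 21.4, 20.9, 20.5 and 17.5 CPM. The Control_IR libraries held 29.4, 24.7, 27.3, 34.3 and 33.6 CPM, and those of EMPA_IR 37.6, 61.7, 37.3 and 22.2 CPM. Every library after ischemia lay above every SHAM library, while both ischemic groups overlapped each other. The log2 fold change was 0.57 ± 0.23 (SE) in Control_IR against SHAM (unadjusted p = 0.0244, FDR 1.00) and 0.97 ± 0.25 in EMPA_IR against SHAM (unadjusted p = 0.000890, FDR 0.105). The latter passed 0.1 under other settings, with an FDR of 0.0213 by DESeq2, 0.0615 without the filter and 0.00419 without EMPA_IR 4. Such settings moved all genes, as the count at 0.1 rose from 75 to 489 by DESeq2 and up to 1637 with 1 library left out. Without EMPA_IR 4 no EMPA_IR library shares a sample-sheet list with SHAM, so that fit cannot separate the list from the treatment. Groups that do not overlap were found for 2.47% of all genes in the former comparison and for 7.88% in the latter. EMPA_IR differed from Control_IR by 0.39 ± 0.23 (FDR 0.296), with a 95% interval of -0.06 to 0.85. The highest library, EMPA_IR 2, also held the highest summed level of 10 leukocyte markers, 230.5 CPM against 21.5 to 101 in the other 12 cardiomyocyte libraries. Its part in the result was not tested, and with that library and Control_IR 4 left out the EMPA_IR against SHAM difference was 0.69 ± 0.21 (FDR 0.155). Adjusted for the sample-sheet list, explained below for Pln, EMPA_IR is represented by EMPA_IR 4 alone. The log2 difference of that library was 0.14 from SHAM and -0.43 from Control_IR.

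Jph2, which tethers the junction, did not pass the test in any cardiomyocyte comparison. SHAM libraries held 40.6, 52.9, 43.8 and 38.4 CPM. In Control_IR the level was 34.03, 22.7, 65.4, 21.7 and 21.3 CPM, and in EMPA_IR 35.5, 18.1, 45.6 and 41.5 CPM. Of the Control_IR libraries 4 lay below all SHAM libraries and 1 above them all. The log2 fold change was -0.41 ± 0.31 in Control_IR against SHAM and -0.30 ± 0.33 in EMPA_IR against SHAM, with FDR of 1.00 and 0.647.

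Ryr2, the release channel, lay higher in 8 of the 9 ischemic cardiomyocyte libraries than in all SHAM libraries, without passing the adjusted threshold. SHAM libraries held 428, 473, 487 and 496 CPM. Control_IR libraries held 752, 662, 708, 458 and 732 CPM, and EMPA_IR libraries 646, 602, 699 and 623 CPM. Control_IR 4 was the exception and lay within the SHAM range. EMPA_IR lay wholly above SHAM, and groups did not overlap for 7.88% of all genes in that comparison. The log2 fold change was 0.49 ± 0.18 in Control_IR against SHAM (unadjusted p = 0.0131, FDR 1.00) and 0.45 ± 0.19 in EMPA_IR against SHAM (unadjusted p = 0.0283, FDR 0.224). EMPA_IR and Control_IR differed by -0.04 ± 0.18, with a 95% interval of -0.40 to 0.31. With Control_IR 4 and EMPA_IR 2 left out, the former difference was 0.60 ± 0.15 (FDR 0.188).

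The luminal partners of the channel did not share that pattern. Casq2, the calcium buffer of the store, had group means of 748 ± 96.5 CPM (SD, n = 4) in SHAM, 764 ± 239 (n = 5) in Control_IR and 749.7 ± 228 (n = 4) in EMPA_IR. Its log2 fold changes were 0.03 ± 0.24, -0.03 ± 0.24 and 0.00 ± 0.25, and intervals of the 3 comparisons stayed within -0.50 and 0.50. Trdn, the anchor, had means of 681 ± 68.0, 633 ± 241 and 544 ± 243 CPM in the same order, and Hrc 631 ± 57.7, 635 ± 319 and 567 ± 208 CPM. The FDR of Casq2, Trdn and Hrc was 0.588 or more in each comparison. Control_IR 3 held the highest level of Casq2 (1179 CPM), Hrc (1120.3 CPM) and Jph2 (65.4 CPM) among the 13 libraries. EMPA_IR 2 held the lowest level of the same 3 genes, at 425, 268 and 18.1 CPM.

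The uptake side held the single member that passed a threshold. Pln stood at 1454, 1343, 1665 and 1491 CPM in SHAM. Control_IR libraries held 1621, 1290.2, 1109.8, 790.3 and 1207 CPM, and EMPA_IR libraries 1806, 2139, 2499 and 1609 CPM. Of the EMPA_IR libraries 3 lay above every Control_IR library, and EMPA_IR 4 lay below Control_IR 1 by little. Pln was 1.67-fold higher in EMPA_IR than in Control_IR (log2 0.74 ± 0.21, 95% interval 0.33 to 1.16, FDR 0.0604). Against SHAM the log2 difference was -0.31 ± 0.21 in Control_IR (FDR 1.00) and 0.44 ± 0.22 in EMPA_IR (FDR 0.308), so neither ischemic group was shown to differ from SHAM. The summed cardiomyocyte markers of these libraries reached 41175 to 57013 CPM in EMPA_IR and 28247 to 57115 CPM in Control_IR, and 9 fibroblast markers 347 to 2461 and 1066 to 2993 CPM. Their part in the Pln difference was not tested.

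The Pln call depended on the settings. It was lost with Control_IR 4, which held the lowest summed cardiomyocyte markers, and EMPA_IR 2, with the highest summed leukocyte markers, left out (log2 0.59 ± 0.19, FDR 0.154), and also without Control_IR 4, Control_IR 5 or EMPA_IR 3 alone, where the log2 fold change stayed between 0.62 and 0.76. EMPA_IR 1, 2 and 3 also had fewer genes detected (12427, 11044 and 12535) than the SHAM and Control_IR libraries (13018 to 13797), while EMPA_IR 4 had 13159, and the part of this in the result was not tested. The labels number the samples and the tubes, and a sample-sheet list was inferred here as a run of samples over which both numbers rise. What such a list stands for is not stated, and by the methods of the study all libraries were prepared and sequenced together. All SHAM and Control_IR cardiomyocyte libraries fell in the same list with EMPA_IR 4 alone, and the other EMPA_IR libraries in other lists. Adjusted for the list, EMPA_IR is represented by EMPA_IR 4 alone, and the Pln difference was 0.42. In the shared list the 1609 CPM of EMPA_IR 4 lay within the Control_IR range. A fit that rests on a single EMPA_IR library cannot separate the list from the treatment.

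Atp2a2, the pump itself, held 2091, 1874, 2086 and 2047 CPM in SHAM. The level was 2134, 1689, 2590.1, 1603 and 1474 CPM in Control_IR and 2699.6, 1567, 3155 and 2358 CPM in EMPA_IR. Both ischemic groups reached above and below the narrow SHAM range. The log2 fold change was -0.09 ± 0.22 in Control_IR against SHAM, 0.37 ± 0.22 in EMPA_IR against Control_IR (FDR 0.318) and 0.27 ± 0.24 in EMPA_IR against SHAM (FDR 0.555).

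Sln, the second inhibitor, was counted at 16 to 284 per library. SHAM libraries held 5.91, 5.58, 5.47 and 24.2 CPM, Control_IR libraries 25.0, 30.1, 24.0, 94.7 and 10.98 CPM, and EMPA_IR libraries 20.1, 58.1, 49.5 and 6.33 CPM. SHAM 4 lay within the range of both ischemic groups, and EMPA_IR 4 lay near the lower SHAM libraries. The log2 fold change was 1.82 ± 0.79 in Control_IR against SHAM (unadjusted p = 0.0412, FDR 1.00), 1.67 ± 0.83 in EMPA_IR against SHAM (FDR 0.309) and -0.15 ± 0.74 in EMPA_IR against Control_IR (FDR 0.923). Adjusted for the sample-sheet list, where EMPA_IR 4 alone stands for its group, the EMPA_IR against SHAM value turned to -0.72. The 3 genes with the most similar pattern over the 13 cardiomyocyte libraries were Myl7, Myl4 and Nppa, with Pearson correlations of log2 CPM of 0.93, 0.93 and 0.91. Myl7 and Myl4 encode atrial myosin light chains and Nppa the atrial natriuretic peptide.

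The summed level of the 6 atrial markers, which include these 3 genes, was 222 to 622 CPM in SHAM, 199.9 to 1109 in Control_IR and 245 to 703 in EMPA_IR. Over the 13 libraries Sln had a Pearson's r of 0.92 and a Spearman's rho of 0.82 with it, which repeats the likeness to those 3 genes and is given without a test. Without the 2 libraries farthest from the median r was 0.93. For deviations from the group means r was 0.94, and within the 10 libraries of the common sample-sheet list it was 0.92. With the atrial sum as a term in the fit, the log2 difference of Sln was 0.95 ± 0.29 in Control_IR against SHAM (FDR 0.958), 0.66 ± 0.31 in EMPA_IR against SHAM (FDR 0.454) and -0.29 ± 0.26 in EMPA_IR against Control_IR (FDR 0.519).

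Camk2d, the kinase, kept to a narrow band in SHAM and EMPA_IR, while Control_IR ran from 22.7 to 48.8 CPM. Its means were 39.6 ± 2.13 CPM in SHAM, 38.1 ± 9.80 in Control_IR and 43.0 ± 5.25 in EMPA_IR, and only Control_IR 4, at 22.7 CPM, lay outside 35.9 to 48.8 CPM. The log2 fold changes were -0.05 ± 0.20, 0.17 ± 0.20 and 0.12 ± 0.21, each with an FDR of 0.629 or more.

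**Figure D2:**
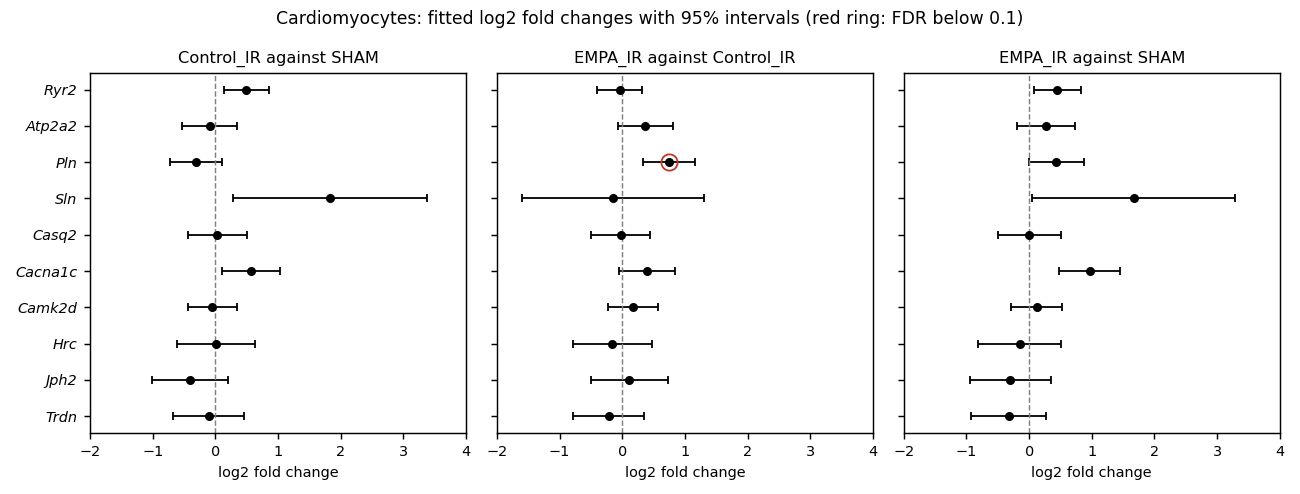
Fitted log2 fold change of each member (points) with its nominal 95% interval (bars) in the 3 cardiomyocyte comparisons, on a common axis from -2 to 4. The bars use the normal distribution and are narrower than the test implies. The red ring marks Pln in EMPA_IR against Control_IR, at 0.74, the single value with an FDR below 0.1.

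Ratios taken within a library need no scaling between libraries. The Pln to Atp2a2 count ratio was 0.735 ± 0.0445 in SHAM, 0.653 ± 0.178 in Control_IR and 0.877 ± 0.330 in EMPA_IR (SD). The Sln to Atp2a2 ratio was 0.00513 ± 0.00449, 0.0211 ± 0.0216 and 0.0158 ± 0.0153, and the Casq2 to Ryr2 ratio 1.60 ± 0.262, 1.17 ± 0.345 and 1.16 ± 0.342. None of the 9 comparisons passed a two-sided exact permutation test after adjustment. The smallest p was 0.0556 (adjusted 0.257), for Sln to Atp2a2 in Control_IR against SHAM, followed by 0.0571 for Casq2 to Ryr2 in EMPA_IR against SHAM, where the smallest p the designs allow are 0.00794 and 0.0286. For Pln to Atp2a2 in EMPA_IR against Control_IR the log2 difference was 0.41 (exact permutation p = 0.262, adjusted 0.471).

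Most genes, the members among them, spread more between libraries after ischemia than in SHAM. The SD of log2(CPM + 1) was larger in Control_IR than in SHAM for 10 of 10 members, and in EMPA_IR for 9 of 10, Ryr2 being the exception. Among all genes tested the same held for 72.8% and 87.3%. The median SD of the members was 0.13 in SHAM, 0.40 in Control_IR and 0.55 in EMPA_IR, beside 0.23, 0.34 and 0.51 over all genes. Hrc, Jph2 and Casq2 varied together over the 13 libraries, with pairwise correlations of log2 CPM of 0.83 to 0.85, whereas Trdn and Sln were at opposite ends with -0.72. Libraries of all groups and depths share these correlations, which are given as a description.

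For the other members compared with all genes by the same measure, the most similar to Ryr2 were Zranb1 (0.91), Fbxo32 (0.82) and Ifrd1 (0.81). Atp2a2 was matched by Mylk4 (0.97), a kinase of myosin light chains, Rcan2 (0.96), a regulator of calcineurin, and Mdh2 (0.94), the mitochondrial malate dehydrogenase. Pln was matched by Eif4e (0.97), the cap-binding translation factor, Dlat (0.96), a subunit of pyruvate dehydrogenase, and Ndufb5 (0.96), a subunit of respiratory complex I.

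Beyond the 10 members, 5 lists held 56 further genes of calcium entry, release, storage, control and mitochondrial uptake, of which 44 were tested in cardiomyocytes. In Control_IR against SHAM 0 passed an FDR of 0.1. In EMPA_IR against Control_IR 10 of 44 (22.7%) passed, 5 higher and 5 lower, against 10.7% of all genes, and 1 passed in EMPA_IR against SHAM. Both counts, and that for sarcolemmal entry and extrusion, include Gem, whose calls are not relied on, as explained in the next paragraph. By list, the called genes numbered 3 of 8 for sarcolemmal entry and extrusion, 1 of 12 for the release unit, 3 of 4 for uptake and storage, 3 of 14 for kinase and beta-adrenergic control and 0 of 6 for mitochondrial calcium.

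The 4 genes of smallest p in EMPA_IR against Control_IR were Gem, Rrad, Calr and Ppp1ca. Gem and Rrad are small GTPases that restrain the L-type channel. Gem was at 1.21 ± 0.754 CPM in EMPA_IR, near the limit that a count of 0 allows, and 4.43 ± 0.349 in Control_IR. It passed the filter on low counts through the groups where it was higher. Its fitted value (log2 -1.84 ± 0.47, FDR 0.0571) is therefore no measured fold and its call is not relied on. Rrad was at 61.1 ± 40.6 CPM in EMPA_IR and 23.1 ± 9.02 in Control_IR (log2 1.41 ± 0.36, FDR 0.0571). Calr, the calcium-binding chaperone calreticulin, was lower in EMPA_IR at 199.5 ± 55.4 against 333 ± 43.7 CPM, and the groups did not overlap (log2 -0.74 ± 0.20, FDR 0.0574). Groups did not overlap for 5.97% of all genes in this comparison. Ppp1ca, a catalytic subunit of protein phosphatase 1, was higher at 96.4 ± 57.8 against 50.4 ± 3.48 CPM (log2 0.93 ± 0.26, FDR 0.0592).

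In EMPA_IR against SHAM, the fitted log2 value of Gem was -1.90 ± 0.48 (FDR 0.0976). That call also rests on a gene near its limit in EMPA_IR and is not relied on. Atp2b4, a plasma membrane calcium pump, and Ppp1ca had FDR of 0.121 and 0.165. In Control_IR against SHAM the smallest p belonged to Adrb1, the beta1-adrenergic receptor, at 14.9 ± 6.72 against 26.5 ± 3.58 CPM (log2 -0.83 ± 0.31, unadjusted p = 0.0151, FDR 1.00). Atp2a3, Letm1 and Prkaca came next, each with an unadjusted p of 0.181 or more. In place of 982 of all genes, 1 passed 0.1 in EMPA_IR against Control_IR without Control_IR 4, 0 without Control_IR 5 and 2 without EMPA_IR 3, while 2342 passed without EMPA_IR 4, so the calls of that comparison move with single libraries.

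Outside cardiomyocytes 9 members were lower, and for Camk2d the direction depended on the scaling. On a scale shared by all 38 libraries with TMM factors, SHAM cardiomyocytes held 1069 ± 66.4 CPM of Ryr2, against 24.7 ± 6.73 in ECs and 18.3 ± 12.6 in fibroblasts. Pln was at 3380 ± 322, 31.9 ± 24.6 and 16.5 ± 10.5 CPM in the same order. On that scale all 10 members passed as higher in SHAM cardiomyocytes than in ECs and in fibroblasts at an FDR under 0.05 (28.1% and 24.5% of all genes), Camk2d among them, whose direction turned with plain totals. Cacna1c, Jph2 and Sln failed the filter on low counts in ECs, and Sln also in fibroblasts. They were tested there through the populations where they were higher, so those calls are not relied on. Without them and Camk2d the log2 differences ran from 5.43 (Ryr2) to 7.53 (Hrc) against ECs. Against fibroblasts, without Sln and Camk2d, they ran from 2.46 (Cacna1c) to 8.55 (Hrc).

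**Figure D3:**
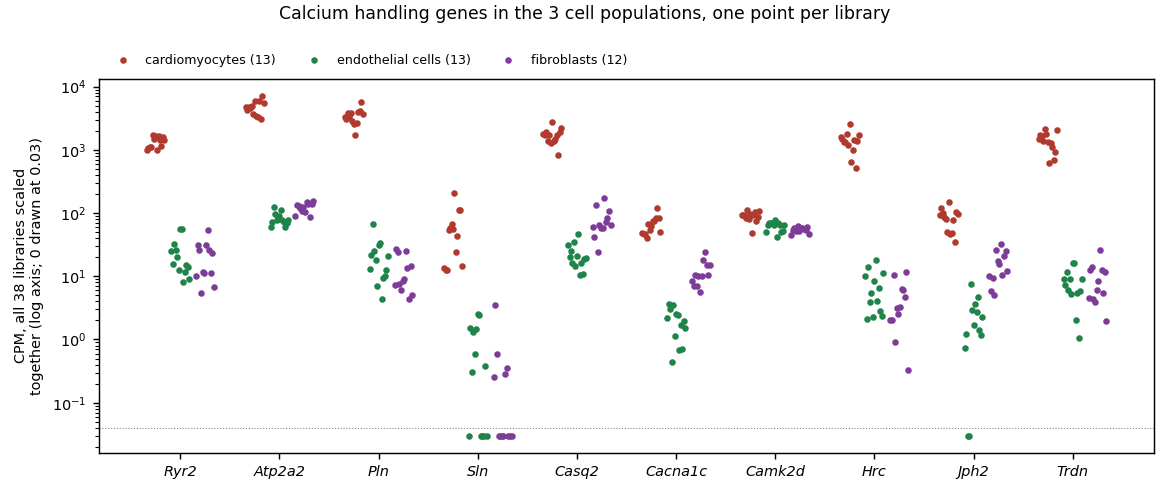
CPM of each member on the scale shared by all 38 libraries (log axis), with 1 point per library for cardiomyocytes (13), ECs (13) and fibroblasts (12). All cardiomyocyte points lie above all EC and fibroblast points for every member except Camk2d, whose medians were 91.9, 64.6 and 55.1 CPM, and 14 points at 0 are drawn below the dotted line at the lower edge.

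For Camk2d the order of the populations depended on the scaling. With TMM its level was 90.0 ± 5.09 CPM in SHAM cardiomyocytes, 63.1 ± 8.99 in ECs and 51.9 ± 5.32 in fibroblasts (log2 0.51 ± 0.19, FDR 0.0239, and 0.79 ± 0.19, FDR 0.000778). As a plain share of all counts it was 41.5 ± 3.55, 104 ± 17.3 and 81.0 ± 9.09 CPM. Leaving out the mitochondrially encoded counts from the total gave 94.97 ± 4.57, 111 ± 18.3 and 87.9 ± 11.3 CPM. No order of the cell types can therefore be given for this kinase, whereas its presence in all 3 does not rest on the scaling.

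The sorted cells were also compared with each other. In SHAM hearts 3 members were higher in fibroblasts than in ECs, namely Jph2 (log2 difference of ECs against fibroblasts -3.75 ± 0.67), Cacna1c (-1.73 ± 0.38) and Casq2 (-1.48 ± 0.42), with FDR of 1.7e-05, 0.000246 and 0.00487 (37.7% of all genes passed in either direction). The other 7 did not pass. Jph2 and Cacna1c failed the filter on low counts in ECs, with 0 to 4 and 1 to 12 counts per SHAM EC library. Both entered the joint model through the other populations. Their fitted values here are no measured folds, and their calls are not relied on. As a share of the SHAM cardiomyocyte level on the TMM scale, fibroblasts held 18.1% of Cacna1c, 7.62% of Jph2 and 3.87% of Casq2, while the 11 cardiomyocyte markers were at 0 to 1.72% with a median of 0.347%. In ECs the same members were at 5.12%, 0.489% and 1.38%, beside 0 to 2.31% for the markers with a median of 0.524%. Pln, Hrc and Trdn lay within the range of the markers in both populations, at 0.273 to 0.945%. Ryr2 did so near the upper end, at 2.31% in ECs and 1.71% in fibroblasts. Atp2a2 lay within it in ECs, at 1.90%, and above it in fibroblasts, at 2.58%. These shares depend on the scaling. As a plain share of all counts, SHAM cardiomyocytes and fibroblasts held 20.99 ± 1.48 and 12.9 ± 2.92 CPM of Cacna1c, 45.7 ± 2.64 and 11.9 ± 3.97 of Jph2, and 780.2 ± 74.6 and 103 ± 79.7 of Casq2, so the fibroblast level was then nearer to that of cardiomyocytes.

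**Figure D4:**
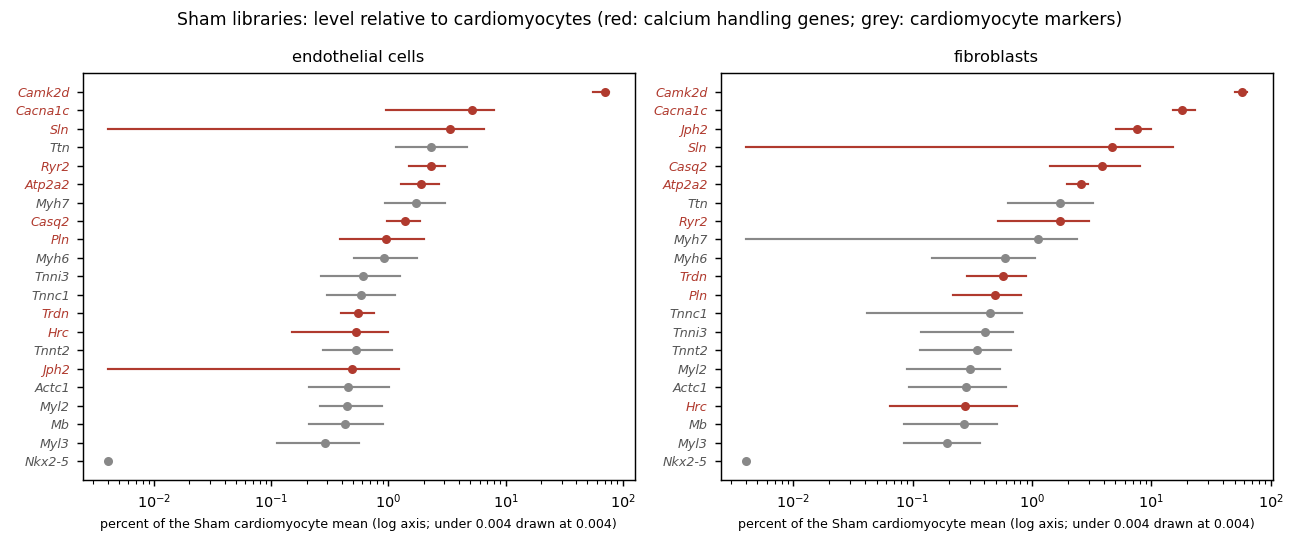
Mean level of each gene in SHAM ECs (left) and SHAM fibroblasts (right) as a percent of its mean in SHAM cardiomyocytes on the TMM scale (log axis), with lines from the lowest to the highest library and values at 0 drawn at the left edge. Members are red and the 11 cardiomyocyte markers grey, and Cacna1c (5.12% and 18.1%) lies above all markers in both panels. So do Camk2d, whose share depends on the scaling, and Sln, which rests on 0 to 12 counts per library and in fibroblasts mainly on the 12 counts of SHAM 2. The EC share of Cacna1c rests on 1 to 12 counts per library.

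In ECs 7 members passed the filter on low counts, and Cacna1c, Jph2 and Sln did not. No member passed an FDR of 0.05 in Control_IR against SHAM (6.56% of all genes), with log2 fold changes of -0.55 to 0.52. In EMPA_IR against Control_IR Ryr2 was lower (2.63% of all genes passed, 2.28% as lower). Its level was 40.1, 24.7, 51.1 and 41.6 CPM in SHAM, 31.7, 19.8, 87.6 and 87.8 CPM in Control_IR and 12.9, 18.4, 23.7, 22.2 and 14.4 CPM in EMPA_IR. The groups overlapped, since Control_IR 2 lay within the EMPA_IR range. The log2 difference was -1.62 ± 0.39 (FDR 0.0418). The other 6 tested members did not pass, with log2 values of -1.29 ± 0.45 for Trdn, -0.93 ± 0.58 for Pln, -0.92 ± 0.30 for Casq2, -0.62 ± 0.62 for Hrc, -0.31 ± 0.18 for Atp2a2 and -0.05 ± 0.18 for Camk2d. The median of the 7 was -0.92, beside 0.02 over all genes.

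The fibroblast markers were lower in EMPA_IR than in Control_IR ECs for 8 of the 8 tested, with a median log2 difference of -2.61, and their sum was 812 to 2388 CPM in SHAM, 3265 to 13682 in Control_IR and 722 to 1411 in EMPA_IR. Their part in the Ryr2 difference was not tested. The sum of the cardiomyocyte markers was 469 to 1887 CPM in SHAM ECs, 486 to 1668 in Control_IR and 337 to 853 in EMPA_IR, and 0 of the 10 markers tested passed, with a median log2 difference of -1.05 in EMPA_IR against Control_IR. Over the 13 EC libraries Ryr2 and the marker sum had a Pearson's r of 0.77 (permutation p = 0.00252, adjusted over 15 relations 0.00583) and a Spearman's rho of 0.68 (permutation p = 0.0126, adjusted 0.0270). The r was 0.66 without the 2 farthest libraries, 0.64 for deviations from group means and 0.82 within the 8 libraries of the largest sample-sheet list. With the marker sum as a term in the fit, the Ryr2 difference was -0.85 ± 0.38 (FDR 0.386), and Pln was at 0.08 ± 0.34. The Ryr2 call was also lost when the sample-sheet list was adjusted for (FDR 0.672) and in 9 of the 13 fits that left out 1 library, among them those without Control_IR 3 or Control_IR 4 (FDR 0.0880 and 0.128), where the log2 difference stayed between -1.92 and -1.32.

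In EMPA_IR against SHAM no EC member passed (2.71% of all genes). The smallest FDR was 0.2001, for Ryr2 at -1.10 ± 0.40, and the EMPA_IR libraries lay below all 4 SHAM libraries, groups being apart for 6.56% of all genes. Sln was counted at 0 to 6 per EC library, at or near the limit that a count of 0 allows, so no fold is given.

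In fibroblasts 9 members passed the filter, all but Sln, which had 12 counts in SHAM 2 and at most 2 elsewhere. Jph2 was higher in Control_IR than in SHAM (4.16% of all genes passed, 2.99% as higher). SHAM fibroblasts held 14.6, 8.80, 13.9 and 7.51 CPM, Control_IR 38.3, 25.9, 22.8 and 47.3 CPM, and EMPA_IR 15.6, 30.5, 36.4 and 17.5 CPM. Every ischemic library was above every SHAM library, as groups did not overlap for 12.3% of all genes in Control_IR against SHAM and for 11.8% in EMPA_IR against SHAM. The fold was 3.00 in Control_IR against SHAM (log2 1.58 ± 0.34, 95% interval 0.92 to 2.25, FDR 0.0132). In EMPA_IR against SHAM it was 2.23 (log2 1.15 ± 0.34, FDR 0.0609; 5.11% of all genes passed), and EMPA_IR differed from Control_IR by -0.43 ± 0.33 (FDR 1.00), a comparison in which 0 genes of 10691 passed by edgeR or DESeq2 and 1.59% had an unadjusted p under 0.05.

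The summed cardiomyocyte markers overlapped between these groups, and their part in the Jph2 difference was not tested. Their sum was 187 to 1086 CPM in SHAM fibroblasts, 413 to 858 in Control_IR and 173 to 901 in EMPA_IR, and Pearson's r of Jph2 with it was 0.31 (permutation p = 0.328, adjusted 0.410; Spearman's rho 0.19, permutation p = 0.560). It was -0.09 without the 2 farthest libraries and 0.39 within the 6 libraries of the largest sample-sheet list. With the sum as a term in the fit, a setting chosen after seeing the data, the Jph2 difference was 1.52 ± 0.33 (FDR 0.0186). Adjusted for the sample-sheet list it was 1.54 (FDR 0.00587). Mural cell markers, 9 genes of smooth muscle cells and pericytes, summed to 1049 to 2962 CPM in SHAM, 927 to 6132 in Control_IR and 1620 to 3298 in EMPA_IR, with 1 of the 9 passing as higher in Control_IR than in SHAM, and their part in the result was not tested. Leaving out SHAM 2 or SHAM 4 moved the FDR to 0.0542 and 0.0511. Among the remaining members of these libraries, Cacna1c came closest in EMPA_IR against SHAM at 0.96 ± 0.34 (FDR 0.122), and the other 7 had an FDR of 0.447 or more in both comparisons with SHAM. Over the 12 libraries Ryr2 had an r of 0.90 with the cardiomyocyte marker sum (permutation p = 1.0e-04, adjusted 5.0e-04) and a rho of 0.85 (permutation p = 0.000730, adjusted 0.00321), with an r of 0.83 without the 2 farthest and 0.86 within the list of 6.

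**Figure D5:**
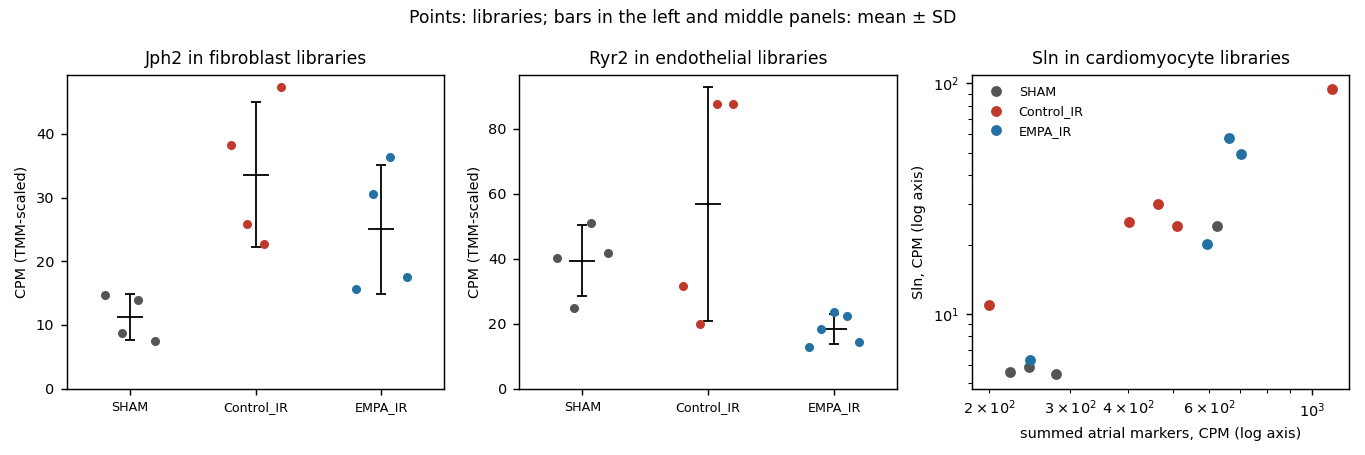
CPM of Jph2 in fibroblast libraries (left) and Ryr2 in EC libraries (middle) by group, with mean and SD, and Sln against the summed atrial markers in the 13 cardiomyocyte libraries (right, both axes logarithmic). Jph2 in SHAM fibroblasts stays at 7.51 to 14.6 CPM below all ischemic libraries, Ryr2 in EMPA_IR ECs stays at 12.9 to 23.7 CPM, and Sln is highest, 94.7 CPM, where the atrial sum is highest.

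Effects were compared between populations in a single model of all libraries. It took the libraries as independent, although populations can share hearts, and its p-values do not account for this. For Control_IR against SHAM, Jph2 was the single member to pass between cardiomyocytes and ECs (1.51% of all genes). In ECs it was counted at 2, 4, 0 and 0 in SHAM, at 26, 8, 4 and 9 in Control_IR and at 8, 14, 4, 3 and 6 in EMPA_IR, and it had failed the filter on low counts there. It entered the joint model through the other populations, so the fitted difference of effects, -3.30 ± 0.82 on the log2 scale (FDR 0.0268), is no measured fold and the call is not relied on. The fibroblast marker sum of the EC libraries, given above, was also higher in Control_IR, and its part was not tested. Without EC Control_IR 1 the FDR was 0.204. Against fibroblasts the Jph2 effect differed by -2.01 ± 0.53 (FDR 0.0901; 0.331% of all genes passed at 0.05). For EMPA_IR against Control_IR no member passed the test of a difference between cardiomyocytes and ECs (0.993% of all genes passed) or fibroblasts (0.00827%), and the smallest FDR was 0.205, for Ryr2 between cardiomyocytes and ECs.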

How the data were processed

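RNA from cardiomyocytes, ECs and fibroblasts of mouse hearts was sequenced as QuantSeq 3′ libraries, each from 2 pooled hearts. The authors deposited estimated counts per gene, unnormalised, made with cutadapt 2.8 (quality 20) and Salmon against GRCm39 with Ensembl 106. They used R 4.0.3 and edgeR for their own comparisons, whose model terms are not given in the sources used here. Of the values 4.55% were not whole, and all were rounded. Gene symbols came from the annotation for 35407 of 35682 genes.

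Each population was fitted separately with edgeR 4.0.16 in R 4.3.3 (filterByExpr with a minimum count of 10, TMM factors, robust quasi-likelihood test, Benjamini-Hochberg adjustment over all genes tested), with the group as the only term, and a fit of all 38 libraries compared populations. Intervals are 95%. Ratios were tested by two-sided exact permutation with 0.5 added to each count, and correlations with 100000 permutations. Fitted intervals and p-values measure the spread between pooled libraries, which may be technical, and floors cover counting error only. Alternatives were DESeq2 1.42.0, RLE factors, other filters, no robust estimation, blocking on the replicate number, adjustment for the sample-sheet list (inferred from sample and tube numbers in the labels, a new list starting where the tube number falls as the sample number rises), no mitochondrially encoded genes, only the groups compared, and leaving out each library. The tests were tested on simulated data. The members and lists were chosen with earlier results of these data known. Named were all members, the 4 other calcium genes of smallest p in each cardiomyocyte comparison, and the 3 genes most like Ryr2, Atp2a2, Pln and Sln. The values of 1 gene of the further lists are not reported here.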

Additional observations from a re-analysis of the deposited data

Results flagged for a closer look

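In 11 of 90 pairs of member and group, 1 library lay apart from the rest of its group by Dixon's criterion at 95%, which chance gives in about 1 in 20 groups. In cardiomyocytes these were Sln in SHAM 4 (24.2 CPM against 5.47 to 5.91 in the others) and in Control_IR 4 (94.7 against 10.98 to 30.1), and Casq2 (1179 against 589 to 742) and Jph2 (65.4 against 21.3 to 34.03) in Control_IR 3. In fibroblasts they were Pln (35.8 against 8.82 to 13.1 CPM) and Casq2 (249 against 83.3 to 93.5) in Control_IR 4, and Hrc in SHAM 3 (15.6 against 1.37 to 3.08). Sln was also apart in fibroblast SHAM 2 (5.28 CPM), Control_IR 4 (0.412) and EMPA_IR 1 (0.519) and in EC EMPA_IR 4 (0.618), where the last 3 values are a single count each.

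The effect of Control_IR against SHAM on Jph2 differed between cardiomyocytes and ECs by a fitted log2 value of -3.30 in the joint model. Jph2 failed the filter in ECs and had 0 to 4 counts in each SHAM EC library, so this is no measured fold and the call is not relied on.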

How the results depend on the processing

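Directions and calls of the members were recomputed under each alternative. The terms for marker sums and the fit without Control_IR 4 and EMPA_IR 2 were chosen after seeing the data. The log2 values of SHAM cardiomyocytes against the sorted cells stayed above 0 in each fit run, and 2 fits lost the call of Camk2d against ECs. Jph2 in fibroblasts kept its call in every fit but those without SHAM 2 or SHAM 4. The count of all genes at 0.1 in cardiomyocyte EMPA_IR against Control_IR was 982 as reported, 0 with the 2 groups alone and 1423 with DESeq2. At 0.05 it was 2 and 812 with DESeq2. In EMPA_IR against SHAM it was 75 at 0.1 and 489 with DESeq2. With the sample-sheet term the cardiomyocyte comparisons with EMPA_IR rest on EMPA_IR 4 alone, so no count is given. For ECs the sample-sheet term moved the count at 0.05 from 685 to 234 in Control_IR against SHAM and from 274 to 9 in EMPA_IR against Control_IR. In fibroblasts it moved it from 445 to 819 and, against EMPA_IR, from 546 to 985. Simulated 4-fold changes in Control_IR against SHAM were recovered at an FDR of 0.05 for 86% of genes in cardiomyocytes, 84% in ECs and 84% in fibroblasts. Recovery of 2-fold changes was 33%, 46% and 34%. Changes near 2-fold can therefore be missed with libraries of this depth and number. The simulation gave every group of a population the same spread, which in the data differed between groups, and it did not cover the comparisons with EMPA_IR. The causes of the shifts in the counts above were not tested.

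With Control_IR 4 and EMPA_IR 2 left out, the number of members called at 0.1 in cardiomyocytes EMPA_IR against Control_IR was 0. Log2 values turned to 0.088 for Camk2d in cardiomyocytes Control_IR against SHAM, 0.078 for Trdn in cardiomyocytes Control_IR against SHAM, 0.20 for Sln in cardiomyocytes EMPA_IR against Control_IR, 0.11 for Casq2 in cardiomyocytes EMPA_IR against Control_IR and 0.082 for Hrc in cardiomyocytes EMPA_IR against SHAM. With DESeq2, the number of members called at 0.05 in cardiomyocytes EMPA_IR against Control_IR was 1, members called at 0.05 in cardiomyocytes EMPA_IR against SHAM was 1, members called at 0.1 in cardiomyocytes EMPA_IR against SHAM was 2, members called at 0.05 in fibroblasts EMPA_IR against SHAM was 1, members called at 0.05 in the difference of effect cardiomyocytes minus fibroblasts, Control_IR against SHAM was 1 and other calcium genes called at 0.1 in cardiomyocytes EMPA_IR against SHAM was 5. The sign changed to log2 values of 0.0046 for Camk2d in ECs Control_IR against SHAM. With RLE factors, the number of members called at 0.1 in cardiomyocytes EMPA_IR against SHAM was 1. Reversed log2 values were 0.0044 for Camk2d in ECs Control_IR against SHAM and 0.0093 for Trdn in SHAM ECs against fibroblasts. With at least 10 counts asked of every library, the number of members called at 0.05 in cardiomyocytes EMPA_IR against Control_IR was 1, members called at 0.1 in cardiomyocytes EMPA_IR against SHAM was 1 and members called at 0.05 in ECs EMPA_IR against Control_IR was 0. Log2 values turned to -0.0035 for Hrc in cardiomyocytes Control_IR against SHAM, -0.026 for Casq2 in cardiomyocytes EMPA_IR against SHAM and -0.021 for Atp2a2 in fibroblasts Control_IR against SHAM. With group medians for the ratios, the log2 value turned to 0.073 for Pln to Atp2a2 count ratio in cardiomyocytes, Control_IR against SHAM, -0.047 for Pln to Atp2a2 count ratio in cardiomyocytes, EMPA_IR against Control_IR and 0.29 for Casq2 to Ryr2 count ratio in cardiomyocytes, EMPA_IR against Control_IR. Without the filter, the number of members called at 0.1 in cardiomyocytes EMPA_IR against SHAM was 1, members called at 0.05 in ECs Control_IR against SHAM was 1, members called at 0.05 in ECs EMPA_IR against Control_IR was 2, members called at 0.05 in fibroblasts EMPA_IR against SHAM was 1 and other calcium genes called at 0.1 in cardiomyocytes EMPA_IR against SHAM was 2. Reversed log2 values were -0.0037 for Hrc in cardiomyocytes Control_IR against SHAM, -0.0050 for Casq2 in cardiomyocytes EMPA_IR against SHAM and 0.00068 for Camk2d in ECs Control_IR against SHAM. With the 2 groups compared alone, the number of members called at 0.1 in cardiomyocytes EMPA_IR against Control_IR was 0, members called at 0.05 in ECs EMPA_IR against Control_IR was 0 and members called at 0.05 in ECs EMPA_IR against SHAM was 1. With the SHAM libraries alone, the log2 value turned to 0.028 for Trdn in SHAM ECs against fibroblasts. Adjusted for the sample-sheet list, the number of members called at 0.05 in ECs EMPA_IR against Control_IR was 0 and members called at 0.05 in fibroblasts EMPA_IR against SHAM was 1. The cardiomyocyte EMPA_IR values of that fit rest on EMPA_IR 4 alone. Reversed log2 values were 0.33 for Casq2 in cardiomyocytes EMPA_IR against Control_IR, -0.43 for Cacna1c in cardiomyocytes EMPA_IR against Control_IR, 0.23 for Hrc in cardiomyocytes EMPA_IR against Control_IR, 0.50 for Trdn in cardiomyocytes EMPA_IR against Control_IR, -0.72 for Sln in cardiomyocytes EMPA_IR against SHAM, 0.24 for Hrc in cardiomyocytes EMPA_IR against SHAM, 0.40 for Trdn in cardiomyocytes EMPA_IR against SHAM, -0.084 for Atp2a2 in ECs Control_IR against SHAM, -0.25 for Casq2 in ECs Control_IR against SHAM, 0.11 for Camk2d in ECs Control_IR against SHAM, -0.38 for Hrc in ECs Control_IR against SHAM, 0.017 for Hrc in fibroblasts Control_IR against SHAM, 0.077 for Casq2 in fibroblasts EMPA_IR against Control_IR, 0.049 for Ryr2 in fibroblasts EMPA_IR against SHAM and 0.11 for Trdn in fibroblasts EMPA_IR against SHAM. With the atrial sum as a term, the log2 value turned to 0.067 for Camk2d in cardiomyocytes Control_IR against SHAM, 0.12 for Trdn in cardiomyocytes Control_IR against SHAM and 0.0040 for Hrc in cardiomyocytes EMPA_IR against SHAM. With the cardiomyocyte marker sum as a term, the number of members called at 0.05 in ECs EMPA_IR against Control_IR was 0. The sign changed to log2 values of -0.0099 for Atp2a2 in ECs Control_IR against SHAM, -0.13 for Hrc in ECs Control_IR against SHAM, 0.084 for Pln in ECs EMPA_IR against Control_IR, 0.75 for Hrc in ECs EMPA_IR against Control_IR, 0.62 for Hrc in ECs EMPA_IR against SHAM, -0.0037 for Atp2a2 in fibroblasts Control_IR against SHAM, 0.055 for Hrc in fibroblasts Control_IR against SHAM, 0.23 for Casq2 in fibroblasts EMPA_IR against Control_IR and 0.061 for Ryr2 in fibroblasts EMPA_IR against SHAM. Without mitochondrially encoded genes, the number of members called at 0.1 in cardiomyocytes EMPA_IR against SHAM was 1. Reversed log2 values were 0.0039 for Casq2 in cardiomyocytes EMPA_IR against Control_IR.

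Leaving out 1 library at a time gave values from -0.16 to 0.084 for Camk2d in cardiomyocytes Control_IR against SHAM, -0.18 to 0.098 for Casq2 in cardiomyocytes Control_IR against SHAM, -0.30 to 0.18 for Hrc in cardiomyocytes Control_IR against SHAM, -0.28 to 0.076 for Trdn in cardiomyocytes Control_IR against SHAM, -0.17 to 0.20 for Casq2 in cardiomyocytes EMPA_IR against Control_IR, -0.32 to 0.16 for Hrc in cardiomyocytes EMPA_IR against Control_IR, -0.039 to 0.53 for Jph2 in cardiomyocytes EMPA_IR against Control_IR and -0.13 to 0.017 for Ryr2 in cardiomyocytes EMPA_IR against Control_IR. Such values ran from -0.49 to 0.58 for Sln in cardiomyocytes EMPA_IR against Control_IR, 0 to 1 for members called at 0.05 in cardiomyocytes EMPA_IR against Control_IR, 0 to 2 for members called at 0.1 in cardiomyocytes EMPA_IR against Control_IR, -0.14 to 0.21 for Casq2 in cardiomyocytes EMPA_IR against SHAM, -0.31 to 0.091 for Hrc in cardiomyocytes EMPA_IR against SHAM, 0 to 1 for members called at 0.05 in cardiomyocytes EMPA_IR against SHAM, 0 to 1 for members called at 0.1 in cardiomyocytes EMPA_IR against SHAM and -0.17 to 0.20 for Casq2 to Ryr2 count ratio in cardiomyocytes, EMPA_IR against Control_IR. Such values ran from -0.13 to 0.25 for Atp2a2 in ECs Control_IR against SHAM, -0.12 to 0.14 for Camk2d in ECs Control_IR against SHAM, -0.013 to 0.52 for Casq2 in ECs Control_IR against SHAM, -0.53 to 0.63 for Hrc in ECs Control_IR against SHAM, -0.80 to 0.16 for Pln in ECs Control_IR against SHAM, -0.21 to 0.039 for Camk2d in ECs EMPA_IR against Control_IR, -1.07 to 0.025 for Hrc in ECs EMPA_IR against Control_IR and 0 to 2 for members called at 0.05 in ECs EMPA_IR against Control_IR. Such values ran from 0 to 1 for members called at 0.05 in ECs EMPA_IR against SHAM, -0.996 to 1.42 for Sln in SHAM ECs against fibroblasts, -0.24 to 0.30 for Trdn in SHAM ECs against fibroblasts, -0.10 to 0.088 for Atp2a2 in fibroblasts Control_IR against SHAM, -0.15 to 1.03 for Casq2 in fibroblasts Control_IR against SHAM, -0.37 to 1.16 for Hrc in fibroblasts Control_IR against SHAM, -0.043 to 0.96 for Ryr2 in fibroblasts Control_IR against SHAM and -0.53 to 0.63 for Trdn in fibroblasts Control_IR against SHAM. Such values ran from 0 to 1 for members called at 0.05 in fibroblasts Control_IR against SHAM, -0.26 to 0.47 for Casq2 in fibroblasts EMPA_IR against Control_IR, -0.056 to 0.96 for Hrc in fibroblasts EMPA_IR against Control_IR, -0.64 to 0.28 for Pln in fibroblasts EMPA_IR against Control_IR, -0.83 to 0.38 for Trdn in fibroblasts EMPA_IR against Control_IR, -0.0028 to 0.27 for Atp2a2 in fibroblasts EMPA_IR against SHAM, -0.012 to 0.13 for Camk2d in fibroblasts EMPA_IR against SHAM and -0.084 to 1.72 for Hrc in fibroblasts EMPA_IR against SHAM. Such values ran from -0.44 to 0.28 for Ryr2 in fibroblasts EMPA_IR against SHAM, -0.49 to 0.17 for Trdn in fibroblasts EMPA_IR against SHAM, 0 to 1 for members called at 0.05 in fibroblasts EMPA_IR against SHAM, -0.042 to 0.30 for Pln to Atp2a2 count ratio in cardiomyocytes, EMPA_IR against SHAM, 1.43 to 2.42 for Sln to Atp2a2 count ratio in cardiomyocytes, Control_IR against SHAM, -1.16 to 0.087 for Sln to Atp2a2 count ratio in cardiomyocytes, EMPA_IR against Control_IR, 0 to 1 for members called at 0.05 in the difference of effect cardiomyocytes minus ECs, Control_IR against SHAM and 0 to 1 for members called at 0.05 in the difference of effect cardiomyocytes minus fibroblasts, Control_IR against SHAM.

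Replicate numbers were shared between groups, but deviations of same-numbered libraries correlated at -0.090 to 0.17 for cardiomyocytes, -0.064 to 0.21 for ECs and -0.11 to 0.48 for fibroblasts, so not every pair was above 0.1 in any population and the numbers were not taken to pair the libraries. The fibroblast libraries numbered 4 shared a sample-sheet list and correlated at 0.28, 0.28 and 0.48. As a block, the number moved the count of all genes at 0.1 in cardiomyocyte EMPA_IR against Control_IR to 0, and the FDR of Pln there to 0.130 at a log2 value of 0.76. With the replicate block, the number of members called at 0.1 in cardiomyocytes EMPA_IR against Control_IR was 0 and members called at 0.05 in ECs EMPA_IR against SHAM was 1. Reversed log2 values were 0.0048 for Ryr2 in cardiomyocytes EMPA_IR against Control_IR, -0.037 for Casq2 in cardiomyocytes EMPA_IR against SHAM and 0.50 for Hrc in fibroblasts Control_IR against SHAM.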
